A study of Mus musculus with 12 samples.

Results

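The cells described here are the luminal hormone-sensing cells of the mammary gland, the epithelial cells that line the ducts and carry the receptors for estrogen, progesterone and prolactin. A gland cell was counted as one when it held at least 1 UMI (a transcript molecule counted by its molecular barcode) of the epithelial gene Epcam, at least 4 UMIs summed over Prlr, Ptn, Fgb, Tph1, Pcp4, Cited1 and Ly6a, and when that sum was more than 2 times the sum over the 7 luminal secretory genes Plet1, Ltf, Muc15, Elf5, Kit, Aldh1a3 and Lcn2. By this rule 1117 of the 3153 gland cells were hormone-sensing, out of 21157 cells in the whole table.

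The study profiled mammary glands and mammary tumors of BRCA1-deficient mice by Drop-seq, a droplet method that captures the 3′ ends of transcripts of single cells. Each of the 2 mice gave 1 gland sample, MG1 and MG2, with 2 libraries each, and 1 tumor, MT1 and MT2, with 8 libraries in all. Both mice had the genotype MMTV-Cre; Brca1flox/flox on a mixed background of C57BL/6 and 129/Sv, and both carried a tumor when the fourth pair of glands was taken. The tissue was digested with enzymes and depleted of hematopoietic and endothelial cells. MMTV-Cre is active in mammary epithelium, so the gland epithelium compared here carried the same deletion design throughout, and no gland without it is analysed here. The methods name young adult females, virgin or pregnant, for gland preparations in general, while tumors of this genotype arise later in life, and the age and pregnancy state of these 2 mice are not given in the sources used here. Libraries of the same gland repeat the preparation and not the animal, so p-values measure the spread between libraries, and mouse and library batch cannot be told apart.

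Hormone-sensing luminal cells take up the signals of the ovary and the pituitary and pass them on to their neighbours. Estrogen receptor and progesterone receptor act in the nucleus together with the pioneer factor Foxa1, and prolactin acts through its receptor, the kinase Jak2 and the factor Stat5a. These cells seldom make milk themselves. They release paracrine ligands such as Wnt4 and calcitonin that act on secretory and basal cells. The secretory luminal cells, their closest relatives in the gland, are the lineage of the milk-producing alveoli.

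The gland libraries held 713 and 105 cells in MG1 and 1183 and 1152 cells in MG2. The hormone-sensing cells had a median of 3987, 6119.5, 2555 and 2340 UMIs in MG1 library 1, MG1 library 2, MG2 library 1 and MG2 library 2, and their summed depth was 1337320, 255465, 1355015 and 1246436 UMIs. Values below are given in this library order unless stated otherwise, as CPM, the UMIs of a gene scaled to a total of 1000000 UMIs over the cells of that class in a library. They are counts of 3′ ends and were not divided by gene length. A count of 3 UMIs, taken as the limit of detection for a gene at 0, stands for 2.24, 11.7, 2.21 and 2.41 CPM in the 4 libraries. No cell barcode was shared between gland libraries. MG1 library 2 contributed only 32 hormone-sensing cells and stood apart in several of the genes below.

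The share of hormone-sensing cells was counted in each gland library. They made up 267 of 713 cells in MG1 library 1 (37.4%, 95% exact binomial interval 33.9 to 41.1%), 32 of 105 in MG1 library 2 (30.5%, 21.9 to 40.2%), 417 of 1183 in MG2 library 1 (35.2%, 32.5 to 38.0%) and 401 of 1152 in MG2 library 2 (34.8%, 32.1 to 37.6%). These intervals cover counting error only, and they overlap between the libraries. When every cell was thinned to 1000 UMIs before the rule was applied, the shares were 30.7, 15.2, 33.7 and 33.3%, so that at equal depth MG1 library 2 was below the other libraries. The luminal secretory cells, found by the mirrored rule, numbered 1336 (median 2773.5 UMIs against 2715 in the hormone-sensing cells), and a rule on 6 basal genes found 127 basal cells.

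**Figure D1:**
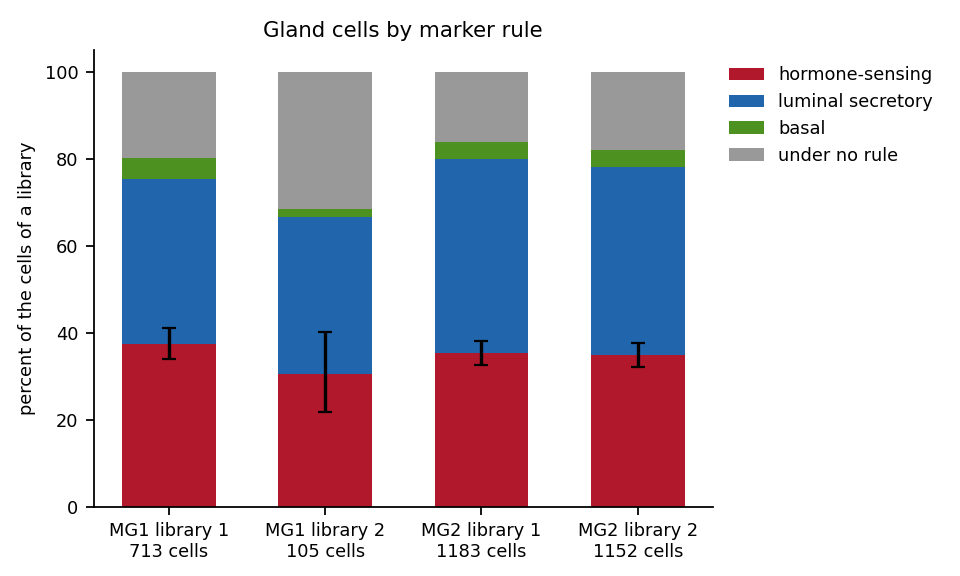
Percent of the cells of each gland library (vertical axis) that follow the hormone-sensing, luminal secretory or basal rule or none of them, with the 95% exact binomial interval of the hormone-sensing share as a bar. The hormone-sensing share lies between 30.5% and 37.4% in the 4 libraries.

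Starts of 3 genes of this cell type are shown with forkhead and STAT motifs. For each gene the first annotated start whose window holds the marked motifs was taken, so these matches were fixed by the choice. The Prlr and Foxa1 starts shown lie inside the gene and not at its outer end. Prlr encodes the prolactin receptor, Foxa1 the forkhead factor that opens chromatin for estrogen receptor, and Fgb the fibrinogen beta chain. Each run covers 250 bases before and 50 bases after an annotated start (RefSeq, GRCm38.p6), read 5′ to 3′ along the gene, and capitals mark a forkhead motif (TGTTTAC, either strand) or a STAT motif of the GAS type (TTCNNNGAA).

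Prlr, chr15:10223656-10223955, plus strand: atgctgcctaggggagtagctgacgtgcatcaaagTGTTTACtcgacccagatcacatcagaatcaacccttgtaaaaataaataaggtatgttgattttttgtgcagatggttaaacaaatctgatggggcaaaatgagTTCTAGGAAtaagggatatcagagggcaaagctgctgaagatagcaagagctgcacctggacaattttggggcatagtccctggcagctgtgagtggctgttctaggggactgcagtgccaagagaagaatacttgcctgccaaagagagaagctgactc

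Foxa1, chr12:57546062-57546361, minus strand: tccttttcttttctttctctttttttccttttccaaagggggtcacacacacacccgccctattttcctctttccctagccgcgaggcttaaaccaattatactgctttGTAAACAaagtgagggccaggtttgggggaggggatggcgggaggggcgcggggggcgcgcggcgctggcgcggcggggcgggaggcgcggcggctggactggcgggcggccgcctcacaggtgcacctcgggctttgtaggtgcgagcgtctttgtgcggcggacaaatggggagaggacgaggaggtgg

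Fgb, chr3:83049814-83050113, minus strand: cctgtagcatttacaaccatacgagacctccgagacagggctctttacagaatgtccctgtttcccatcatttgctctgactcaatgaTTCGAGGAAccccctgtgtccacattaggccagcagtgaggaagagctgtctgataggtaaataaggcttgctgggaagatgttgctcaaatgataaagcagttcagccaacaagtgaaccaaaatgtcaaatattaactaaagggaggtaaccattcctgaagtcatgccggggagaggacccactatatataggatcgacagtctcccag

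The Prlr window held a forkhead motif 215 bases and a GAS motif 110 bases upstream of the start. In Foxa1 the forkhead motif lay 141 bases upstream, and in Fgb the GAS motif lay 162 bases upstream, next to an AP-1 motif (TGANTCA) 173 bases upstream. Of 17 marker genes looked up, 14 matched, with 21 annotated starts. The forkhead motif was in 2 of these 21 windows (9.52%) against 3.65% of all 32851 promoter windows, the GAS motif in 3 (14.3%) against 8.30%, and the AP-1 motif in 4 (19.0%) against 7.81%. The estrogen response element, GGTCA facing its inverted copy across 3 free bases, was in 0 of 21 and in 0.070% of all windows. A match is a run of letters and was not tested for binding.

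The 7 genes that chose the cells are described first, without a test. Ptn, which encodes the secreted growth factor pleiotrophin, stood at 21608, 8177, 24982 and 21947 CPM and provided 76.3% of all marker UMIs in the cells. Prlr stood at 3733, 2012, 3325 and 3533. Both genes were lowest in MG1 library 2, and both were detected in nearly every hormone-sensing cell, Ptn in 98.8% and Prlr in 96.1%. Prlr spans chr15:10177238-10349190 and Ptn chr6:36714924-36810179 in GRCm38.p6.

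The other 5 rule genes were found in fewer cells. Cited1, a transcriptional co-activator, was detected in 50.2% of hormone-sensing cells, Ly6a (the surface protein Sca-1) in 46.3%, Tph1 (tryptophan hydroxylase, the first enzyme of serotonin synthesis) in 44.8%, Fgb in 43.3% and Pcp4 (a calmodulin-binding peptide) in 37.8%. Fgb was the most uneven of them. Its median was 0 UMIs per cell, its 90th percentile was 14 and its highest value 206. The library levels of Fgb were 2358, 70.5, 1353 and 1211 CPM, so that MG1 library 2 was far below the others. For Tph1 the order was the opposite, with 192, 1331, 596 and 773. Pcp4 (425, 294, 519 and 588), Cited1 (391, 591, 338 and 381) and Ly6a (280, 395, 442 and 404) varied less between libraries.

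**Figure D2:**
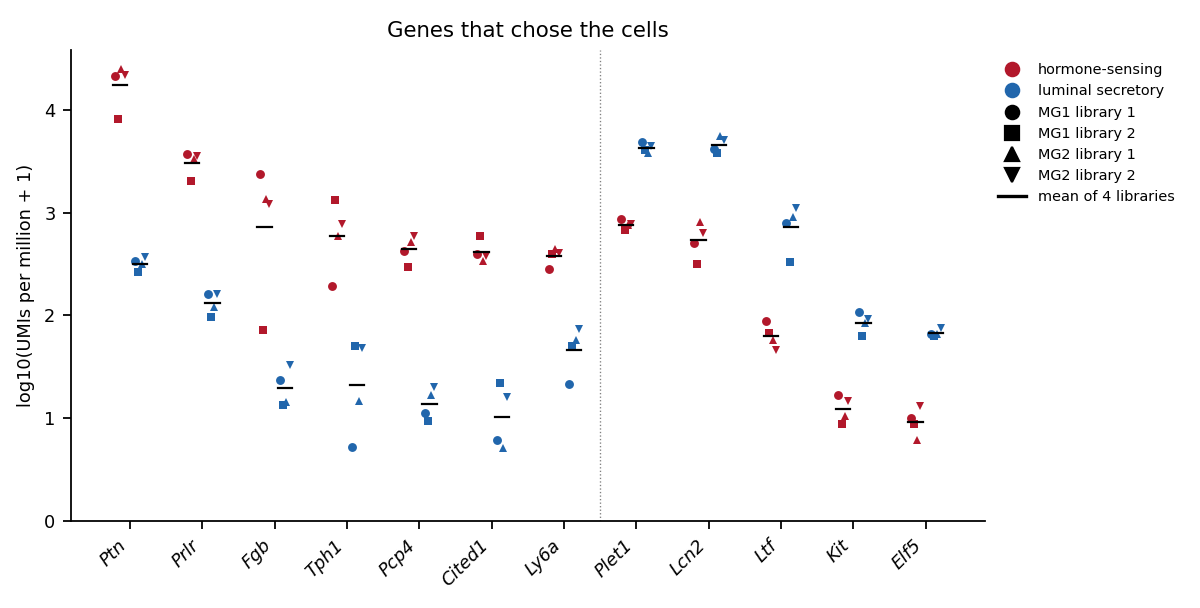
Level of 7 hormone-sensing and 5 secretory rule genes in hormone-sensing and luminal secretory cells, as log10 of CPM plus 1, with 1 point per library and the mean of 4 libraries as a line. Ptn in hormone-sensing cells lies between 8177 and 24982 CPM, and the points of MG1 library 2 stand apart for Ptn, Fgb and Tph1.

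In most cells at least 1 UMI was found for several of the 7 markers. Free RNA was not subtracted from these counts, and the secretory cells held 336 CPM of Ptn and 143 of Prlr. In 335 cells 4 markers were detected, in 276 cells 5, in 129 cells 6 and in 36 cells all 7, while 244 cells had 3, 86 cells 2 and 11 cells only 1. These counts are at full depth. For pairs of genes each cell was first thinned to 1000 UMIs, so a cell without a gene there may hold it at full depth. Fgb, Tph1 and Pcp4 were each found both in cells with and in cells without another of the 3. In MG2 library 1, Tph1 was detected in 28.6% of the cells with Fgb and in 32.3% of those without, and Pcp4 in 29.4% and 25.8%. In MG2 library 2 the same pairs gave 37.8% against 39.8% for Tph1 and 29.1% against 33.6% for Pcp4. In MG1 library 1, Tph1 was found in 13.5% of the cells with Fgb and in 12.3% of those without, and Pcp4 in 7.69% and 12.3%. Pcp4 was found in 20.6% of the cells with Tph1 and in 9.01% of those without in MG1 library 1, in 29.2% against 25.8% in MG2 library 1 and in 29.9% against 33.6% in MG2 library 2. MG1 library 2 had too few cells to compare, and pairs with Cited1 or Ly6a were not counted. These shares are descriptive, since all 3 genes belong to the rule.

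Few cells lay near the threshold on the marker sum. The median marker sum was 80 UMIs, with quartiles of 48 and 136, and the secretory sum was 0 in 298 hormone-sensing cells. Just inside the threshold, 26 cells had a marker sum of 4 to 6, and just outside it, 27 cells with Epcam that met the ratio had a sum of 1 to 3. The level was summed over 11 hormone-sensing markers outside the rule, listed with earlier results of these data known. It was 297 CPM in the former and 193 in the latter. It was 2071 in the hormone-sensing cells with a sum over 6 and 160 in the secretory cells. The cells at the edge of the rule had levels near those of the secretory cells. Another 184 cells met every condition but the ratio and were not secretory, with a level of 766, and 67 cells lacked only Epcam, with a level of 124. With a ratio of 4 in place of 2 the rule kept 1009 of the 1117 cells, and with Ptn left out of the marker sum it kept 878.

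A small set of the cells carried fibroblast transcripts. The fibroblast collagen and matrix genes Col1a1, Col1a2, Col3a1, Lum and Pdgfra had 0 UMIs in 1003 of the 1117 cells (89.8%). In 34 cells their sum was 5 or more, and these 34 cells held 1147 of the 1251 UMIs of those genes (91.7%). Ly6a was detected in 31 of the 34, and their median marker sum was 12.5 against 82 in the other hormone-sensing cells. They numbered 20, 4, 6 and 4 in the libraries. The summed level of the 5 genes was 558, 270, 230 and 100 CPM in the hormone-sensing cells against 157, 62.4, 108 and 125 in the secretory cells, and none of the 5 was at 0 in every library. Because fibroblasts can also express Ly6a, each comparison was repeated with only the cells at 0 for these genes. Over the 6 markers of endothelial and mural cells the summed level was 23.5 to 31.3 CPM in the hormone-sensing cells and 7.72 to 162 in the secretory cells. Over 5 immune markers it was 0.748 to 117, highest in MG1 library 2, with Tyrobp at 0 in every library. No doublet caller was run.

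The question of the main comparison was what separates hormone-sensing cells from the other cells of the gland. These were not limited to epithelium, since 2841 of the 3153 gland cells had an Epcam UMI. Counts were summed per library and cell class and compared with the other gland cells, and then with the luminal secretory cells alone, by edgeR's quasi-likelihood test with the library as a block. Since the cells were chosen by 15 genes from the same libraries, those genes were left out of all calls, and genes that go along with them differ in part through the choice itself. Against the other gland cells 9127 genes were tested, and 1705 (18.7%) were higher and 1917 (21.0%) lower in hormone-sensing cells at an adjusted p under 0.05, 39.7% in all. Against the secretory cells 8915 genes were tested, with 1679 higher (18.8%) and 1675 lower (18.8%), 37.6% in all. Counts of genes in a list are to be read against these shares. The median log2 fold change over all tested genes was -0.018 and 0.0048. The number of calls depended on the MG2 libraries. Without MG2 library 1 it fell from 3622 to 2061 and from 3354 to 2034, and without MG2 library 2 to 2134 and 1853.

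Receptors and transcription factors of the hormone response were high in these cells. Of 12 listed genes 9 passed the filter on low counts, and in either comparison 7 were higher, 1 was lower and 1 did not pass. The list's median log2 fold change was 1.00 against the other gland cells and 2.11 against secretory cells. 

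Pgr, the progesterone receptor, stood at 286, 157, 186 and 234 CPM in hormone-sensing cells and at 6.01, 8.31, 2.28 and 10.7 in secretory cells. The 2 sets of libraries did not overlap. The log2 fold change was 5.03 ± 0.27 (n = 4 libraries of 2 mice), or 32.6-fold, with an adjusted p of 1.9e-07 (edgeR). Here and below, ± gives an approximate SE, the size of the log2 fold change over the square root of the F statistic. It is not the spread of the libraries. Esr1, which encodes estrogen receptor alpha, was at 62.8, 62.6, 89.3 and 89.1 CPM against 6.01, 4.16, 8.21 and 8.27. It was 9.95-fold higher (log2 3.31 ± 0.22, adjusted p 7.4e-07, edgeR), and its level hardly differed between the libraries of a gland. Foxa1 stood at 86.0, 58.7, 90.04 and 87.4 against 5.15, 8.31, 5.93 and 5.35, with a log2 fold change of 3.78 ± 0.24 and an adjusted p of 5.1e-07.

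Tbx3, a T-box repressor needed for mammary development, was 12.2-fold higher than in secretory cells. Against the other gland cells these folds were 7.10 for Tbx3, 10.6 for Pgr, 6.03 for Esr1 and 8.22 for Foxa1. All 4 genes passed the 0.05 threshold in both comparisons. Gata3, the luminal lineage factor of both luminal types, differed by little. It stood at 217, 200, 184 and 209 CPM against 154, 183, 94.4 and 133 in secretory cells, a log2 fold change of 0.49 ± 0.15 with an adjusted p of 0.022. That call was lost without either MG2 library, with adjusted p values of 0.23 and 0.14. DESeq2 did not call it (0.054). By edgeR it was also lost with no low-count filter (0.071), without the 5% deepest cells (0.051) and without the library block (0.24). The glucocorticoid receptor Nr3c1 was the member that was lower, with 51.6, 74.4, 43.5 and 43.3 CPM against 165, 208, 133 and 112 (log2 -1.66 ± 0.15, adjusted p 7.8e-06).

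**Figure D3:**
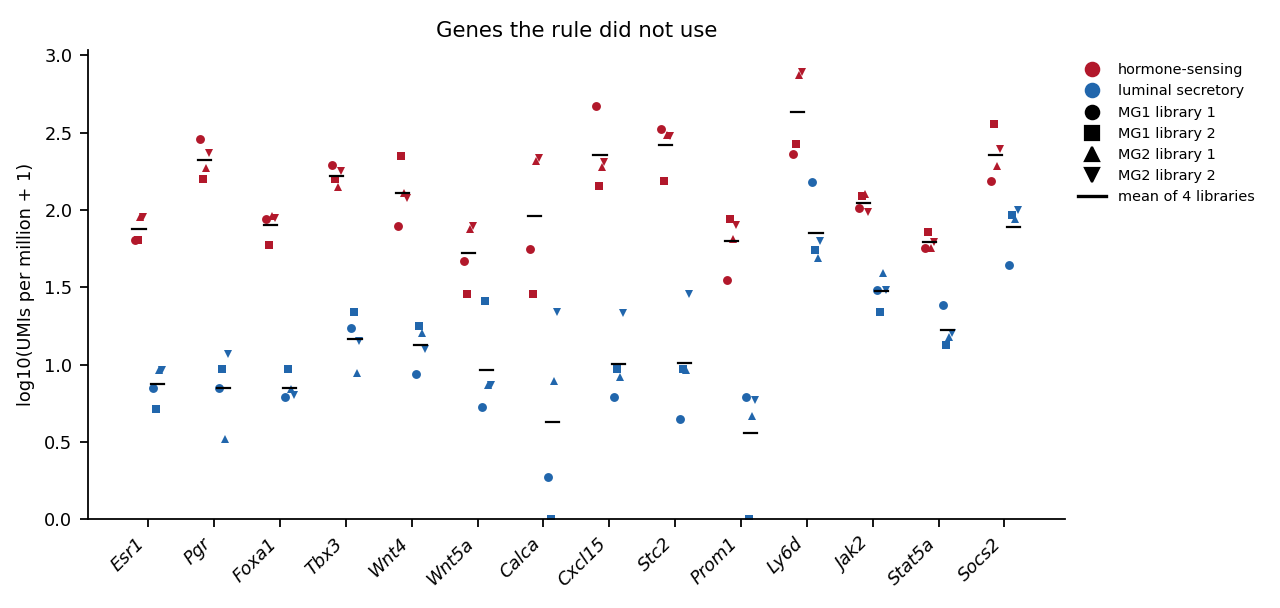
Level of 14 genes that the rule did not use (receptors, factors, ligands, surface markers and prolactin signalling) in hormone-sensing and luminal secretory cells, as log10 of CPM plus 1, with 1 point per library and the mean of 4 libraries as a line. Pgr lies between 157 and 286 CPM in hormone-sensing cells and between 2.28 and 10.7 in secretory cells, and in hormone-sensing cells both MG2 libraries lie above both MG1 libraries for Calca and Ly6d.

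The label was set beside markers outside the rule, a list drawn up with earlier results of these data known. Of 12 listed, 11 were in the table and 10 passed the filter, and all 10 were higher in both comparisons. Their median log2 fold change was 3.77 against secretory cells and 3.12 against the other gland cells. Here and in the other lists a gene could pass the filter through the hormone-sensing cells alone, so the count of 10 describes the markers and does not test the label. Areg, the amphiregulin gene, was not analysed here. Tnfsf11, which encodes RANKL, was close to the limit of detection, with 1.496, 11.7, 1.48 and 0.802 CPM. It was detected in 0.627% of hormone-sensing cells and 0.0749% of secretory cells. After thinning to 1000 UMIs, Pgr was detected in 18.9% of hormone-sensing cells against 0.973% of secretory cells, Esr1 in 8.68% against 0.524% and Foxa1 in 9.31% against 0.449%. The secretory share serves as the background of free RNA in droplets at a like depth, and all 3 shares were above it.

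Most of the tested paracrine ligands were higher in hormone-sensing cells. Of 12 listed, 11 were in the table and 8 tested, of which 6 were higher than in secretory cells and 2 did not pass, with a median log2 fold change of 3.11. One of the latter, the secreted protease gene Adamts1, was called lower without MG1 library 1 (log2 -1.20, adjusted p 0.0043), among the cells without fibroblast UMIs (-1.41, adjusted p 0.0011) and with Ly6a left out of the marker sum (-1.20, adjusted p 0.0038). Against the other gland cells 6 were higher and Adamts1 was lower.

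Stc2, which encodes the secreted glycoprotein stanniocalcin, stood at 334, 153, 306 and 298 CPM against 3.43, 8.31, 8.21 and 27.7 in secretory cells (log2 4.44 ± 0.35, adjusted p 2.7e-06, edgeR). Cxcl15, a chemokine gene, was at 472, 141, 189 and 202 against 5.15, 8.31, 7.30 and 20.4, which was 20.4-fold higher. Calca, the calcitonin and CGRP gene, stood at 54.6, 27.4, 205 and 215 against 0.858, 0, 6.84 and 20.9, with a log2 fold change of 4.03 ± 0.31. Its level in MG2 was above both MG1 libraries, while Stc2 was even except in MG1 library 2.

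Wnt4, a ligand downstream of progesterone, was at 77.8, 223, 128 and 119 CPM against 7.72, 16.6, 15.05 and 11.7, an 8.96-fold difference (adjusted p 3.3e-07). Wnt5a was 8.35-fold higher (log2 3.06 ± 0.38). Wnt7b differed less, with a log2 fold change of 0.97 ± 0.26 and an adjusted p of 0.013, and that call was lost without MG2 library 2 (0.077). For these 3 Wnt ligands the hormone-sensing cells were the higher class.

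The genes that receive these ligands were tested as a separate list of 18 genes, which also holds Rspo1, the gene of an R-spondin ligand. Against secretory cells 10 were tested, with 2 higher, 4 lower and 4 that did not pass, and a median of -0.54. Rspo1 was 1 of the 4 lower genes. Over all genes tested 18.8% were higher and 18.8% lower. Egfr, the receptor for amphiregulin, stood at 23.9, 43.1, 7.38 and 17.7 CPM in hormone-sensing cells and at 44.6, 49.9, 47.9 and 52.1 in secretory cells (log2 -1.54 ± 0.31, adjusted p 0.0023). Lgr4, an R-spondin receptor, was 4.06-fold lower, and the receptor phosphatase gene Ptprz1, whose product binds pleiotrophin, was 5.22-fold lower, at 8.23, 0, 5.90 and 0.802 against 29.2, 12.5, 21.9 and 16.5. The 2 higher members were the Wnt co-receptor Lrp5 (log2 1.28 ± 0.35) and the proteoglycan gene Sdc1 (1.11 ± 0.20). Lrp5 lost its call without MG1 library 1 (adjusted p 0.051) or MG2 library 2 (0.082).

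Downstream of Prlr the calls were mixed, beside 18.8% higher and 18.8% lower over all genes tested. Of the 10 genes of prolactin, JAK and STAT signalling 9 were tested against secretory cells, with 3 higher, 2 lower and 4 that did not pass, and a median of 0.52. Jak2 stood at 102, 121, 125 and 95.5 CPM against 29.2, 20.8, 38.3 and 29.2 (log2 1.69 ± 0.18, adjusted p 2.1e-05). Stat5a stood at 56.1, 70.5, 56.1 and 61.0 against 23.2, 12.5, 14.1 and 15.1 (1.71 ± 0.23), and the feedback inhibitor Socs2 was 2.59-fold higher. Stat3, which in the gland is known for its part in involution, was at 202, 207, 267 and 329 against 285, 382, 416 and 527 (-0.77 ± 0.12, adjusted p 0.00036). Cish, another STAT5 target, was lower with an adjusted p of 0.040, which rose to 0.27 and 0.17 without MG2 library 1 or 2. Its call was also lost without the 5% deepest cells (0.076), with sums per mouse (0.064) and without the library block (0.17). DESeq2 did not call Cish (adjusted p 0.13). The cyclin gene Ccnd1 did not pass against secretory cells (0.57 ± 0.24, adjusted p 0.085), and without MG1 library 2 its log2 fold change was 0.86 with an adjusted p of 0.0012.

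By size of change, 15 genes led each comparison under a fixed rule on level and sign. Among those higher than in secretory cells was R3hdml, at 58.3, 66.5, 106 and 85.0 CPM against 0.858, 0, 0.456 and 1.46 (log2 6.35 ± 0.36). Upk3a, a gene of the uroplakins that coat the bladder epithelium, was at 435, 211, 187 and 187 against 4.29, 8.31, 3.19 and 2.92 (5.90 ± 0.23), and it also led the comparison with the other gland cells (4.49 ± 0.18). The groups were far apart in every library for both genes.

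Some of these leading genes encode channels or transporters, though no list of such genes was tested. Piezo2, a mechanically gated ion channel gene, stood at 240, 368, 562 and 604 CPM against 8.58, 8.31, 8.66 and 15.6, which was 40.1-fold higher. Trpc6, a cation channel gene, was 53.1-fold higher and Abcc8, which encodes the sulfonylurea receptor, 49.9-fold. Slc35f3, of a solute carrier family, was 30.8-fold higher. Itih2, of the inter-alpha-trypsin inhibitor heavy chains, was at 445, 607, 497 and 485 against 9.44, 45.7, 2.74 and 13.6. The aspartic protease gene Ctse was 46.0-fold higher. The folds of genes with 0 in a secretory library depend on the prior count of the fit.

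The remaining leaders were Ttc6, Gipc2, Fam25c, Cyp3a57 and the transcript AW112010, between 33.1- and 59.5-fold higher. Ttc6 overlaps Foxa1 on chromosome 12, from base 57546704 to the Foxa1 end at 57548029, and Cyp3a57 belongs to a family of near-identical genes, so their reads are uncertain. In the comparison with all other gland cells the tryptophan-degrading enzyme gene Ido1 (15.6-fold), Ctsr (19.4-fold), Hepacam2, Mtmr7 and Tmem86a joined this set. Ctsr varied most between libraries, at 837, 78.3, 48.0 and 97.9 CPM.

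Milk genes were low in hormone-sensing cells without exception in this list. All 12 were tested and all 12 were lower in both comparisons, with a median log2 fold change of -3.58 against secretory cells. Csn2, the beta-casein gene, stood at 29.9, 344, 235 and 370 CPM against 1201, 9878, 4652 and 4045 (log2 -4.51 ± 0.25, adjusted p 2.0e-07, edgeR). Wap was 19.6-fold lower and Csn1s2a 19.6-fold, Csn1s1 14.7-fold and Lalba 13.2-fold. Glycam1 was the least even, at 0, 204, 61.3 and 466 against 0, 3642, 1020 and 328, so that its order was turned in MG2 library 2. Its call (adjusted p 0.022) was lost without MG1 library 2 (0.15) or MG2 library 1 (0.12), without the 5% deepest cells (0.14) and without the library block (0.20). DESeq2 did not call it (adjusted p 0.12). The 12 milk genes summed to 1267, 2407, 2479 and 2699 CPM in hormone-sensing cells and 12187, 38014, 24934 and 22814 in secretory cells. The sums did not overlap.

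Other secretory genes went the same way. Of 11 listed secretory genes 9 were tested and 7 were lower than in secretory cells. Of these 7, Csn3 is also in the milk list and Rspo1 in the list of receivers. Among the others were Cd14 (5.85-fold lower) and Cebpb, a factor of alveolar development. Cebpb stood at 128, 215, 215 and 223 CPM against 371, 557, 745 and 803. S100a8, a calprotectin gene of innate defence, was 28.0-fold lower, and the immunoglobulin carrier gene Pigr 13.9-fold. The fatty acid carrier gene Fabp3 (16.1-fold) and the amino acid oxidase gene Lao1 (15.1-fold) were also among the lowest, and against the other gland cells so was the fatty acid receptor gene Cd36 (9.90-fold lower).

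Basal genes were lower as well. All 10 tested of the 12 basal myoepithelial genes were lower in both comparisons (median -1.78 against secretory cells). Acta2, smooth muscle actin, stood at 21.7, 7.83, 18.4 and 27.3 CPM against 60.1, 150, 139 and 119 in secretory cells, and Krt14 at 56.8, 23.5, 39.9 and 85.8 against 88.4, 287, 231 and 214. The basal list summed to 137 to 534 CPM in hormone-sensing cells and 756 to 1838 in secretory cells.

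Luminal keratins split between the luminal types. Of 10 keratin and junction genes, all tested, 4 were higher and 2 lower than in secretory cells. Krt7 stood at 473, 458, 530 and 442 CPM against 98.7, 179, 153 and 153 (log2 1.64 ± 0.15, adjusted p 8.1e-06), and Krt19 at 2282, 2634, 2432 and 2627 against 917, 1023, 988 and 1370 (1.11 ± 0.11). Cldn4, a tight junction gene, was 2.54-fold higher and the protease inhibitor gene Spint2 1.70-fold. Krt8 and Krt18, the keratin pair of simple epithelium, were both lower, by 1.42-fold and 1.43-fold (log2 -0.50 ± 0.10 and -0.51 ± 0.13). Against the other gland cells Krt8 and Krt18 did not pass, with log2 fold changes of -0.16 and -0.20. Both passed against only the other cells with Epcam (-0.32, adjusted p 0.013, and -0.36, adjusted p 0.015) and among the cells without fibroblast UMIs (-0.33, adjusted p 0.013, and -0.31, adjusted p 0.038).

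Calcium handling genes held calls in both directions, beside 18.8% higher and 18.8% lower over all genes tested. Of 10 listed genes, 6 were tested against secretory cells, with 2 higher and 4 lower. S100a6, a calcium-binding protein gene, stood at 2672, 2251, 4029 and 4147 CPM against 557, 474, 694 and 822 (log2 2.23 ± 0.11, adjusted p 7.3e-08). Atp2b1, a plasma membrane calcium pump gene, was at 206, 157, 164 and 190 against 735, 557, 851 and 825 (-2.18 ± 0.13). The calmodulin gene Calm2 was lower (-0.77 ± 0.10) and Calm3 was higher (0.64 ± 0.20, adjusted p 0.027). The Calm3 call was lost without MG1 library 1 (0.055) or MG2 library 1 (0.22), among the cells without fibroblast UMIs (0.054) and by DESeq2 (0.062). Pcp4, whose product binds calmodulin, was among the genes that chose the cells.

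Genes of the pathways around Fgb and Tph1 held calls in both directions, beside 18.8% higher and 18.8% lower over all genes tested. Counts in lists this small do not show a change of a pathway. Of 8 fibrinogen and acute phase genes 6 were in the table and 5 tested, with 1 higher and 3 lower. Fgg, the gamma chain of fibrinogen, stood at 126, 0, 273 and 196 CPM against 18.0, 24.9, 56.5 and 36.5 (log2 2.18 ± 0.34, adjusted p 0.00042), and like Fgb it was lowest in MG1 library 2. DESeq2 did not call it (adjusted p 0.39). The serum amyloid genes Saa1 and Saa2, near-identical copies that may share reads, were 13.005-fold and 11.1-fold lower. The complement gene C3 was also lower, and its call (adjusted p 0.026) was lost without MG2 library 1 (0.12) or library 2 (0.21). It was also lost without the 5% deepest cells (0.099) and without the library block (0.25). The haptoglobin gene Hp did not pass (-0.25 ± 0.23), and without MG1 library 1 it was -0.70 with an adjusted p of 0.0040. Of 11 serotonin genes 4 were tested, and Maoa, which degrades serotonin, was higher (1.45 ± 0.29) while Gch1, which makes a cofactor of tryptophan hydroxylase, was lower (-1.81 ± 0.19).

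**Figure D4:**
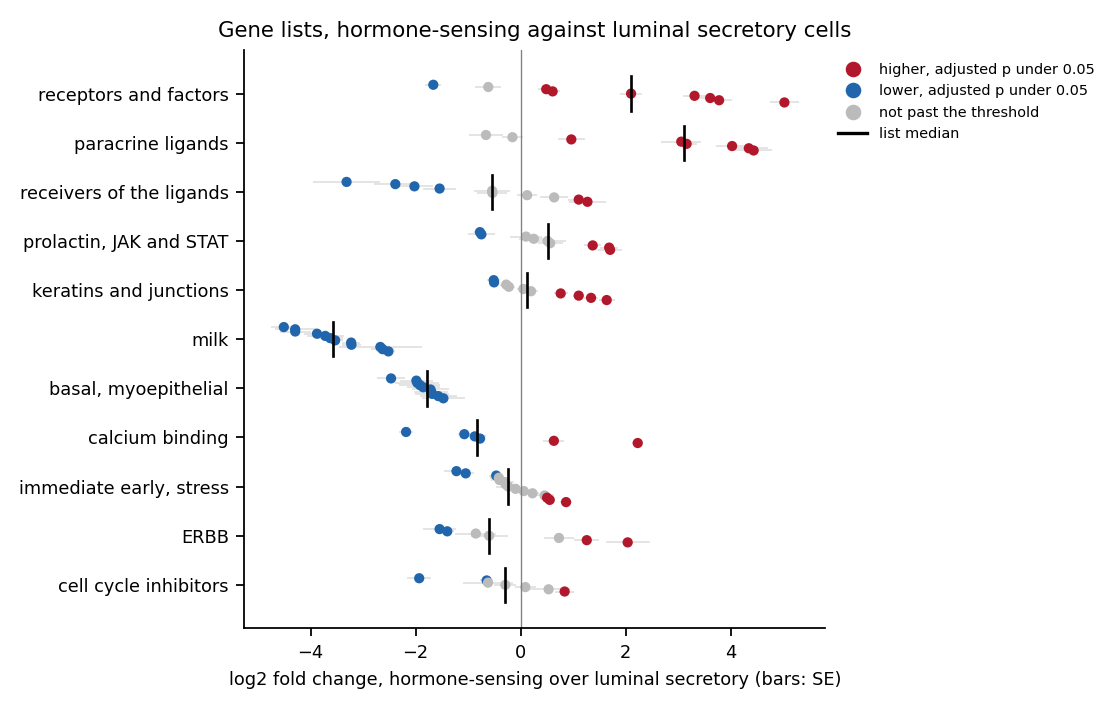
Log2 fold change of each tested gene of 11 lists in hormone-sensing over luminal secretory cells (horizontal axis), colored by call at an adjusted p under 0.05, with the list median as a line. Bars are the approximate SE taken from the F statistic of the fit to 4 libraries. The milk genes center on -3.58 and the paracrine ligands on 3.11.

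Growth factor and cell cycle genes showed small counts, beside 18.8% higher and 18.8% lower over all genes tested. Of 9 ERBB genes 7 were tested against secretory cells, with 2 higher (Erbb3, 2.40-fold, and its ligand family member Btc, 4.12-fold) and 2 lower (Egfr and Hbegf, 2.63-fold). In the Notch list 1 of 6 tested, Hes1, was higher (log2 0.64 ± 0.16), and the call was lost without MG2 library 2 (adjusted p 0.074). Of 12 proliferation genes 6 were tested, with Mcm6 higher (0.81 ± 0.23) and Pcna lower (-0.84 ± 0.15). Without MG1 library 1 or MG2 library 1 the adjusted p of Mcm6 was 0.071 and 0.082. Of 9 inhibitors of the cell cycle 7 were tested. Cdkn1b was higher (0.84 ± 0.19), with adjusted p values of 0.068 and 0.067 without MG2 library 1 or 2, and Cdkn1a (-0.65 ± 0.13) and Rb1 (-1.93 ± 0.23) were lower.

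Most genes of homologous recombination did not pass the filter on low counts. Brca1, the gene floxed in these mice, was at 0, 0, 3.69 and 3.21 CPM in hormone-sensing cells and at 0, 0, 1.37 and 1.95 in secretory cells. Since 3′ counts do not show which exons a transcript holds, they do not check the deletion, and a level up to the limits given above remains possible in MG1. Of 9 genes 2 were tested, and Rbbp8, which acts in DNA end resection, was lower (log2 -0.87 ± 0.17, adjusted p 0.0021).

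Immediate early genes, which respond quickly to signals and to stress, held calls in both directions. All 15 were tested against secretory cells, with 3 higher and 3 lower, beside 18.8% higher and 18.8% lower over all genes. Against the other gland cells 4 were higher and 7 lower, beside 18.7% higher and 21.0% lower over all genes. Fos stood at 2993, 1480, 2641 and 2232 CPM against 1978, 844, 1495 and 1592 (log2 0.56 ± 0.10), and Atf3 (0.87 ± 0.11) and Junb (0.51 ± 0.13) were also higher. Lower than in secretory cells were the heat shock gene Hspa1a (-1.22 ± 0.24), the phosphatase gene Dusp1 (-1.04 ± 0.16) and Ier2 (-0.46 ± 0.13).

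Dcn and the collagens were examined with and without the cells that carry fibroblast transcripts. Against secretory cells 3 of 6 fibroblast genes were higher, Dcn, Col1a1 and Col1a2. Dcn, the decorin gene, stood at 1552, 1456, 688 and 773 CPM against 203, 187, 103 and 93.0 (log2 2.80 ± 0.12). In the cells with 0 UMIs of the 5 other fibroblast genes it was still at 1257, 296, 653 and 678 CPM, against 106, 152, 53.5 and 68.0 in secretory cells of the same kind. For Col1a1 (1.02 ± 0.37, adjusted p 0.048) and Col1a2 (0.86 ± 0.27, adjusted p 0.024) the direction turned when Ly6a was left out of the marker sum, to -0.58 and -0.49. The Col1a1 call was lost without MG1 library 1 (0.94, adjusted p 0.11), MG1 library 2 (1.00, adjusted p 0.058) or MG2 library 1 (0.46, adjusted p 0.45) and by DESeq2 (adjusted p 0.11). The Col1a2 call was lost without MG1 library 1 (0.50, adjusted p 0.18), and Col3a1 was called higher without MG2 library 2 (2.07, adjusted p 0.0020). Against all other gland cells, which include fibroblasts, 5 of the 6 were lower and Dcn did not pass (0.31 ± 0.24). Dcn passed against only the other cells with Epcam (1.27, adjusted p 0.012), among the cells without fibroblast UMIs (1.82, adjusted p 0.012) and without MG1 library 2 (0.66, adjusted p 0.0032). Against only the other cells with Epcam the collagens were no longer lower, with 0.52 for Col1a1, 0.12 for Col1a2 and 0.49 for Col3a1, and none of these 3 passed. The Col3a1 call (-1.87, adjusted p 0.031) was lost without MG2 library 1 (-1.69, adjusted p 0.11) or library 2 (-0.90, adjusted p 0.15) and by DESeq2 (adjusted p 0.22). DESeq2 did not call Col1a2 (adjusted p 0.058). Without MG2 library 2 the log2 fold changes of Col1a1 and Col1a2 were -0.90 and -1.10 in place of -1.67 and -1.70, and both passed.

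Ly6a marks part of the hormone-sensing cells and is used to sort them. It was detected in 517 cells (median 3104 UMIs) and at 0 in 600 cells (median 2525), so the Ly6a-detected cells were deeper, and the part of depth in the result was not tested. Ly6a also belongs to the rule, so cells with few other markers could enter only on the Ly6a-detected side. Between the 2 sides 6614 genes were tested, and 59 (0.892%) were higher and 2 (0.0302%) lower in the Ly6a-detected cells, 0.922% in all. The leaders were Col1a1, Col3a1 and Col1a2 of the fibroblast list with Thbd, Dpt, Clec3b, Prg4 and Ccl7, which were 15.8- to 29.4-fold higher. Col1a1 stood at 120, 29.5, 130 and 25.6 CPM against 2.60, 0, 3.24 and 3.68. The summed level of the 5 fibroblast genes was 165 to 1237 CPM in the Ly6a-detected cells and 11.6 to 55.9 in the others. Without MG1 library 1 the number of calls was 33 in place of 61.

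The split was repeated with Ly6a left out of the marker sum. This left 1091 hormone-sensing cells, 491 with Ly6a and 600 without, and the 26 cells that dropped out all had Ly6a. Of the 34 cells with a fibroblast sum of 5 or more 16 remained. The number of calls was 22, all among the 61, with 21 higher and 1 lower. Col1a2 was still higher (log2 2.72 ± 0.36, adjusted p 0.00026), as were Dpt (3.62 ± 0.43) and the intermediate filament gene Vim (1.62 ± 0.22).

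With only cells at 0 for the fibroblast genes, and Ly6a kept in the rule, 5 calls were left. Ly6e (log2 1.05 ± 0.12, adjusted p 0.00027), Ly6d (0.83 ± 0.14), Clca3a2 (0.76 ± 0.14) and Crip1 (0.69 ± 0.12) were higher in the Ly6a-detected cells, and the fibronectin gene Fn1 was lower (-1.39 ± 0.26), while among all cells Fn1 was not called (1.05 ± 0.31). With Ly6a left out of the rule as well, 2 calls were left, Ly6e (1.07 ± 0.12, adjusted p 0.00038) and Ly6d (0.88 ± 0.15, adjusted p 0.034). Clca3a2 (0.78, adjusted p 0.080), Crip1 (0.68, adjusted p 0.054) and Fn1 (-1.43, adjusted p 0.080) kept their size and did not pass. Among all cells Ly6d was at 0.58 (adjusted p 0.0495), and it lost that call with any of the 4 libraries left out and by DESeq2 (adjusted p 0.24). Among all cells Ly6e stood at 1095, 733, 1324 and 1596 CPM with Ly6a and at 594, 325, 779 and 728 without it. Ly6a, Ly6d and Ly6e are related genes of 1 cluster on chromosome 15 (chr15:74994877-74998031, chr15:74762056-74763567 and chr15:74955025-74959904), and reads shared between relatives cannot be set apart in these counts. In contrast, Esr1 (63.3, 70.9, 82.7 and 71.2 against 62.4, 46.4, 97.1 and 112) and Pgr (275, 142, 186 and 239 against 294, 186, 186 and 228) overlapped between the sides. Of the genes lower with Ly6a in all cells, the growth factor gene Epgn (-1.34 ± 0.23) and Abcc8 (-1.18 ± 0.26), neither passed among the cells without fibroblast UMIs, where Epgn was at -0.88 (adjusted p 0.83) and Abcc8 at -1.24 (adjusted p 0.31). Abcc8 also lost its call without MG1 library 2 (0.11), MG2 library 1 (0.28) or MG2 library 2 (0.35). With Ly6a left out of the marker sum Epgn passed (-1.19 ± 0.23, adjusted p 0.014).

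**Figure D5:**
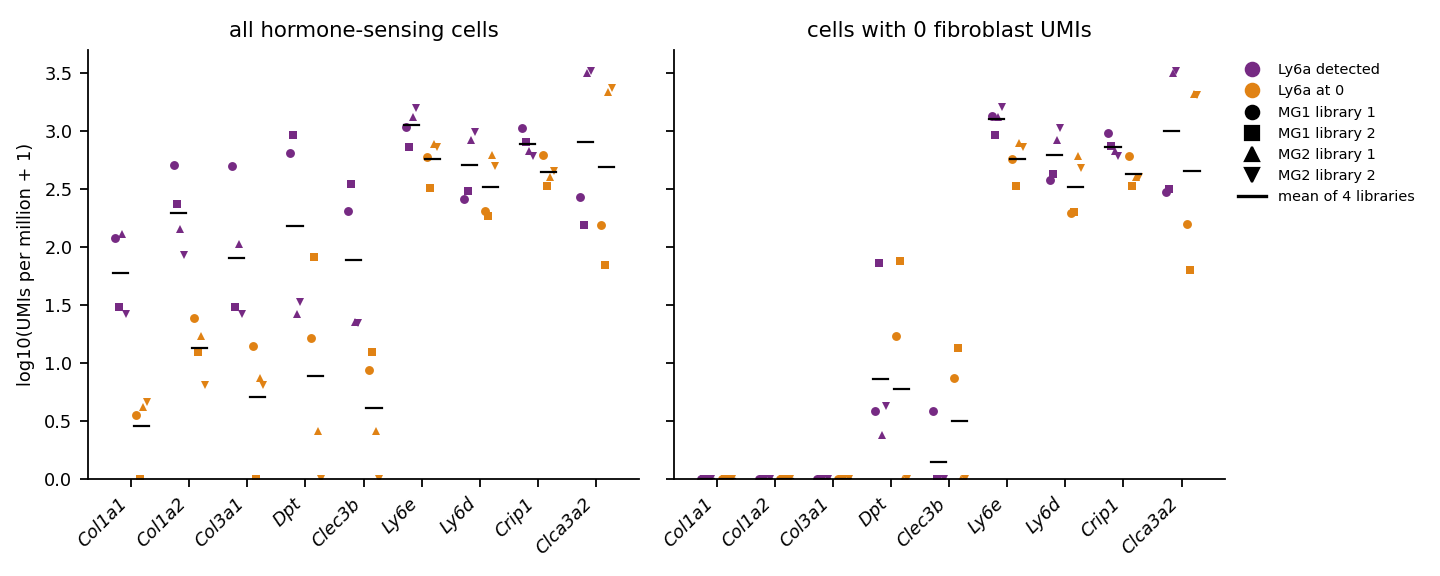
Level of 9 genes in hormone-sensing cells with and without a Ly6a UMI, as log10 of CPM plus 1, in all cells (left) and in cells with 0 UMIs of 5 fibroblast genes (right), with 1 point per library and the mean of 4 libraries as a line. Col1a1 separates the sides on the left and is at 0 on the right, while Ly6e stays higher with Ly6a on both sides.

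The hormone-sensing cells of the 2 mice were compared last. With 2 libraries per gland 9433 genes were tested, and 133 (1.41%) were higher and 27 (0.286%) lower in MG1, 1.70% in all, by edgeR. With only cells at 0 for the fibroblast genes 19 calls were left, all among the 160, 9 higher and 10 lower. The count of calls also depended on single libraries, with 1224 without MG1 library 1, 1080 without MG1 library 2, 75 without MG2 library 1 and 109 without MG2 library 2 in place of 160. Where a gland is left with 1 library, that library is assumed to vary like the libraries of the other gland.

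The higher genes with the largest change were Cilp, Aspn, Fndc1, Ebf1, Pcolce2, Efemp1, Dpt and Slfn5, several of them known matrix genes of fibroblasts. Aspn stood at 42.6, 70.5, 0 and 0 CPM and was at least 40.8-fold higher in MG1, with 3 UMIs over the libraries of MG2 as the floor, and Cilp was at least 32.1-fold higher. The summed level of the 5 fibroblast genes was 558 and 270 CPM in MG1 against 230 and 100 in MG2, and none of these 8 genes was among the 19 calls left without the cells that carry them, where Dpt was at 4.53 (adjusted p 0.23) and the other 7 did not pass the low-count filter.

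Among the 19 were several epithelial genes. Dmbt1, a secreted scavenger receptor gene of mucosal surfaces, had 0 UMIs in both MG1 libraries and stood at 148 and 104 CPM in MG2, at least 67.3-fold lower in MG1 with 3 UMIs over both MG1 libraries as the floor. Clca3a2, of a family of chloride channel regulators with close relatives that may share reads, stood at 203 and 125 against 2718 and 2916 (log2 -3.84 ± 0.33, adjusted p 0.0016), and Itgb6, an epithelial integrin subunit, at 39.6 and 86.1 against 446 and 440 (-2.79 ± 0.34). Higher in MG1 were the keratins Krt15, at 334 and 266 against 50.2 and 53.0, and Krt6a, at 200 in both MG1 libraries against 57.6 and 42.5, and the neurexin gene Nrxn3, at 59.1 and 114 against 3.69 and 8.83. Mum1l1 and the pseudogene Rps13-ps1, whose reads may belong to its parent gene, were also among the 19 and lower in MG1. Of the other genes of the lowest set among all cells, Zfp949 was at -2.82 (adjusted p 0.063), Mgp at -4.33 (adjusted p 0.078) and Apobec3 at -2.59 (adjusted p 0.14) without fibroblast UMIs. Apobec3 also lost its call without MG2 library 2 (adjusted p 0.28).

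Few genes of the hormone response passed the test between the mice. The median log2 fold change of the 10 tested receptors and factors was 0.27, beside -0.0084 over all genes, and their lowest adjusted p was 0.23. Of 8 tested ligands Calca was lower in MG1 (log2 -1.97 ± 0.33, adjusted p 0.028) and Adamts1 higher (1.55 ± 0.26, adjusted p 0.024). Of the 10 tested markers outside the rule, Ly6d was lower (-1.43 ± 0.23, adjusted p 0.024) beside Calca. Among the cells without fibroblast UMIs none of these 3 passed. Calca was at -1.49 there (adjusted p 0.16), Ly6d at -1.25 (adjusted p 0.14) and Adamts1 at 0.68 (adjusted p 0.68). Without MG2 library 1 or 2 none of them passed either, at log2 fold changes of -2.06 and -2.04 for Calca, -1.45 and -1.43 for Ly6d and 1.55 and 1.53 for Adamts1. A test of whether the contrast with the other gland cells differed between the mice gave a positive term, a log2 fold change above that of MG2, to 27 of 10735 genes in MG1 (0.252%) and a negative term to 6 (0.0559%), 0.307% in all. The sign does not say in which mouse the contrast was larger in size. At this number of libraries a change of 1 on the log2 scale was rarely recovered in simulated counts, so a missing call does not show equal levels.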

How the data were processed

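Gland and tumor cells of 2 mice were profiled by Drop-seq, and only the 4 gland libraries enter the comparisons. The deposited table holds raw UMI counts of 21743 genes in 21157 cells, which the authors made with Drop-seq tools 1.13 and STAR on GRCm38.p6, per the labels and the study's methods. Every gland cell in it has at least 800 detected genes. Cells were assigned to libraries by the tag in their column names and 0 columns were left unassigned. The members and gene lists were chosen with earlier results of these data known.

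Counts were summed per library and cell class and analysed in R 4.3.3 by edgeR 4.0.16 (TMM scaling, filterByExpr, quasi-likelihood F test, Benjamini-Hochberg adjustment over all genes tested, threshold 0.05). Sums from the same library were paired by a library block, except between the mice. The pairing comes from the shared library, since replicate numbers follow accession order and pair nothing. The 15 genes of the rule stayed in library sizes and out of calls. Besides these and the listed genes, the text names the 15 highest and 10 lowest called genes of the first 2 comparisons with the same sign in every library and at least 50 CPM, 8 in each direction between the mice and for Ly6a, and 5 for the interaction of class and mouse. Gm, Rik and mitochondrial genes were passed over. Some genes that these rules select are not reported here. The fits were tested on simulated data.

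Libraries of a gland differed by more than counting noise (chi-square per degree of freedom 8.67 in MG1 and 2.95 in MG2), so none was counted as a repeat. Depth is given in the report. Alternatives were DESeq2 1.42.0, RLE scaling, no low-count filter, a marker sum of 6, a ratio of 4, Ly6a left out, the 5% deepest cells left out, other cells with Epcam only, no block, sums per mouse and each library left out. Leaving out Ptn, the cells with fibroblast UMIs and, for the Ly6a split, Ly6a was added after seeing the data. Coordinates matched 284 of 288 genes. Promoter windows come from RefSeq. Areg and other listed genes without a row were not analysed here.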

Additional observations from a re-analysis of the deposited data

Results flagged for a closer look

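The contrast of hormone-sensing against other gland cells differed between the mice for 33 of 10735 genes (0.307%) by edgeR's test of the interaction, in which a positive value means that the log2 fold change over the other cells was higher in MG1 than in MG2, whatever its own sign. Among called genes with at least 50 CPM in a class, the 5 highest were Ebf1 (3.39, adjusted p 0.033), Col3a1 (3.28, adjusted p 0.025), Ctla2a (3.19, adjusted p 0.0050), Col14a1 (2.62, adjusted p 0.025) and Igfbp4 (2.56, adjusted p 0.044). The 5 lowest were Serpine2 (-3.57, adjusted p 0.025), Mgp (-2.41, adjusted p 0.013), Clca3a2 (-2.21, adjusted p 0.00024), Ly6d (-2.07, adjusted p 0.011) and Man1a (-1.71, adjusted p 0.015). Clca3a2 stood at 203, 125, 2718 and 2916 CPM in hormone-sensing cells and at 304, 162, 869 and 946 in the other gland cells. Among cells at 0 for 5 fibroblast genes Serpine2, Clca3a2 and Ly6d still passed, while Mgp (-2.74, adjusted p 0.28) and Man1a (-1.70, adjusted p 0.10) kept their size and did not. Of the higher genes Ebf1 (3.05), Ctla2a (3.39), Igfbp4 (2.15) and Col14a1 (0.20) did not pass there. Without MG1 library 1 Serpine2 was at -0.57 (adjusted p 0.82) and Mgp at -1.32 (adjusted p 0.095), and DESeq2 did not call Serpine2 (adjusted p 0.40) or Ebf1 (0.090). Col3a1 did not pass without MG1 library 1 (adjusted p 0.26). Ebf1, Col14a1 and Man1a did not pass without either MG2 library, nor did Igfbp4 without MG2 library 2. With only other cells that have Epcam, Clca3a2 was the 1 call left (-2.20, adjusted p 0.00060).

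The proliferation genes Mki67 (3.52), Top2a (3.29) and Cenpf (5.23), with means over the libraries under 50 CPM in both classes, also had positive values. Without MG1 library 1 Mki67 was at 6.32 and Cenpf at 10.3. Mki67 stood at 26.9, 66.5, 4.43 and 17.7 CPM in hormone-sensing cells and at 11.4, 2.28, 26.7 and 41.6 in the other gland cells, so that its order turned between the mice. With a ratio of 4 in the rule the values were 0.56, 0.17 and 3.55, and none of these 3 passed. Among cells without fibroblast UMIs Mki67 passed, while Top2a (2.54, adjusted p 0.40) and Cenpf (4.65, adjusted p 0.17) did not. Mki67 and Top2a also lost their calls with Ly6a left out of the rule (2.19 and 2.60) and without the 5% deepest cells (2.85 and 2.09), and all 3 did with only other cells that have Epcam (3.22, 2.99 and 4.70).

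Outside the gland libraries, 81 of 7690 MT1 cells followed the rule, 1.05% of that tumor, and 2 of 10314 MT2 cells did. These cells enter no comparison, and no background share from free RNA or doublets was measured in the tumor libraries. In the 5 MT1 libraries the share was 0.853, 1.63, 1.08, 0.948 and 0.979%.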

How the results depend on the processing

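Counts of genes past the threshold are given by setting. Against the other gland cells (3622 calls) the count was 1615 without the library block and 2061 to 4118 with 1 library left out. Against secretory cells (3354) it was 1789 without the library block and 1853 to 3768 with 1 library left out. In the other settings of both comparisons, DESeq2 and the rule variants among them, the count stayed within 1.5 times. Between the mice (160) it was 38 with no low-count filter, 96 with a ratio of 4, 63 with Ly6a left out of the rule, 19 without fibroblast UMIs, and 75 to 1224 with 1 library left out. No paired analysis was possible between the mice because they are separate animals and the replicate numbers, given in accession order, tie no library of one to a library of the other. For the Ly6a split (61) it was 219 with no low-count filter, 40 with a marker sum of 6, 22 with Ly6a left out of the rule, 5 without fibroblast UMIs, 2 with both of these together, 123 with sums per mouse and 33 to 75 with 1 library left out. Without the library block it was 0 by edgeR, with 153 genes at an unadjusted p under 0.05, and DESeq2 with the block called 45. For the interaction (33) it was 21 with DESeq2, 150 with no low-count filter, 7 with a ratio of 4, 87 without the 5% deepest cells, 1 with only other cells that have Epcam, 11 without fibroblast UMIs and 23 to 281 with 1 library left out (228 and 281 without MG1 library 1 or 2). For single genes, 1100 of 1156 values against the other gland cells and 998 of 1047 against secretory cells kept their direction and side of the threshold, and 366 of 386 and 356 of 383 did with 1 library left out. Fewer did between the mice (143 of 190, and 82 of 100 with 1 library left out), in the Ly6a split (83 of 110 and 43 of 50) and for the interaction (72 of 115 and 42 of 52). The direction turned, with only other cells that have Epcam, for Col1a1 (0.52), Col1a2 (0.12) and Col3a1 (0.49) against the other gland cells. Against secretory cells it turned for Col1a1 with a marker sum of 6 (-0.028) and with Ly6a left out (-0.58), and for Col1a2 with Ly6a left out (-0.49). For C3 it turned in the Ly6a split without fibroblast UMIs (-0.60) and with Ly6a left out as well (-0.52). The cause was not tested. In the setting without fibroblast UMIs fewer cells enter. The 32 cells of MG1 library 2 limit what can be seen in MG1, where 3 UMIs stand for 11.7 CPM.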
